A study of Mus musculus with 2 samples.

Results

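The miR-15/16 genes Mir15a, Mir15b, Mir16-1 and Mir16-2, together with Mir195a, are 5 microRNA genes of the mouse, chosen by name as a family with 1 seed, out of 2202 microRNA genes counted. They were measured by small-RNA sequencing of adrenal glands from female B6CASTF1/J mice, the first-generation offspring of C57BL/6J and CAST/EiJ parents, at 10 days of age. The 2 libraries, replicates 1 and 2, form 1 group, for which the labels name no treatment and no mutant allele, so each gene has a level and a spread between libraries but no condition to be set against. The labels number the animals 3 and 4 yet give both the same donor entry, so the spread between the libraries may be partly technical. Replicate 1 held 2023410 reads assigned to microRNA genes and replicate 2 held 3208821, so 1 read was worth 0.494 CPM in the first of these libraries and 0.312 CPM in the other. CPM scales each library's counts to the same total of assigned reads.

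A microRNA silences messenger RNAs by pairing its seed, bases 2 to 8 of the mature strand, with sites in their 3' untranslated regions, so microRNAs that share a seed can share targets. The miR-15/16 family is known as a restraint on the cell cycle and on cell survival. Among its established targets are the messages of cyclin D1, cyclin E1, CDK6 and the anti-apoptotic protein BCL2, and the locus of Mir15a and Mir16-1 is deleted in many human chronic lymphocytic leukaemias. Mir195a belongs to the same seed family and is known in the mouse heart for its rise after birth, when cardiomyocytes leave the cell cycle.

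The mature sequences of the family's 5' arms, from RefSeq on build GRCm38.p6, show what the members have in common, with the seed in capitals. All 5 members matched the RefSeq table by symbol, and together they have 4 distinct sequences, because Mir16-1 and Mir16-2 give the same mature strand.

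miR-15a-5p: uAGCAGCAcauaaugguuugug
miR-15b-5p: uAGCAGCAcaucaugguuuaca
miR-16-5p: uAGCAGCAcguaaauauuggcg
miR-195a-5p: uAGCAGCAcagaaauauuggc

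Counted from the 5' end, miR-15a-5p and miR-15b-5p were identical at 18 of 22 positions (A12C, G20A, U21C and G22A, with the base of miR-15a-5p first). miR-16-5p and miR-195a-5p were identical at 19 of 21 positions (G10A and U11G, with the base of miR-16-5p first). The sequences thus fall into a pair of miR-15 sequences and a pair made of miR-16-5p and miR-195a-5p, and the differences lie outside the seed. The 3' arms of the 5 hairpins have 5 distinct seeds. The deposited counts are per hairpin and do not separate the arms, so a count can hold reads of either arm.

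Matched by symbol, a further 6 of the 2202 genes counted carry this seed in the RefSeq table and are not members. Their sequences are shown for those with reads, the X-linked Mir322 and Mir497, the neighbour of Mir195a.

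miR-322-5p: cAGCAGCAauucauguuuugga
miR-497a-5p: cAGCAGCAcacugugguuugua

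Both differ from miR-15a-5p in the first base (U1C, with the base of miR-15a-5p first), which lies outside the seed. Over the whole strand, miR-322-5p was identical to miR-15a-5p at 15 of 22 positions and miR-497a-5p at 17 of 22. Mir195b, Mir6342, Mir6353 and Mir6419 had no read in either library. For reads that align to 1 place, such a 0 sets a limit of 3 counts, equal to 1.48 CPM for replicate 1 and 0.935 CPM for replicate 2.

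The members lie at 3 loci of mm10 (GRCm38). Mir15a (ENSMUSG00000093007.1, chr14:61632027-61632110, minus strand) and Mir16-1 (ENSMUSG00000092995.1, chr14:61631880-61631972, minus strand) lie 54 bases apart in the noncoding gene Dleu2. Mir15a is intronic and Mir16-1 overlaps an exon of at least 1 annotated Dleu2 transcript. Mir15b (ENSMUSG00000065580.2, chr3:69009772-69009835, plus strand) and Mir16-2 (ENSMUSG00000065606.1, chr3:69009902-69009996, plus strand) lie 66 bases apart in an intron of Smc4, which codes for a subunit of the condensin complex. Mir195a (ENSMUSG00000065411.2, chr11:70235042-70235135, plus strand) lies 241 bases from Mir497 (ENSMUSG00000105220.1, chr11:70234717-70234800, plus strand), and neither has a host gene on its strand in this annotation.

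All 5 members were counted far above 10 CPM in both libraries, and all 5 stood higher in replicate 1. Mir195a was counted 10390 times in replicate 1 and 1685 times in replicate 2, which is 5135 CPM (exact 95% interval 5037 to 5234) in replicate 1 and 525 CPM (500.3 to 551) in replicate 2. Mir15a, the first gene of the Dleu2 locus, stood at 3996 CPM (3909 to 4084) in replicate 1 and 1025 CPM (990.0 to 1060) in replicate 2. Mir15b of the Smc4 locus stood at 3895 CPM (3810 to 3982) in replicate 1 and 1246 CPM (1208 to 1285) in replicate 2. No interval of replicate 1 overlapped that of replicate 2 for these genes. Such a difference was common, since 73.6% of the 329 genes measured differed between the libraries by the test described below. Mir16-1 was lower, at 1301 CPM (1252 to 1351) in replicate 1 and 609 CPM (582 to 636) in replicate 2. Mir16-2 had the lowest CPM of the members in each library. It stood at 416 CPM (388 to 445) in replicate 1 and 245 CPM (228 to 262) in replicate 2. These intervals cover counting error only. The counts of Mir16-1 and Mir16-2 lack the reads that these genes share, so they give no level of miR-16 itself. Mature microRNAs have similar lengths, so the counts were not scaled by length.

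**Figure D1:**
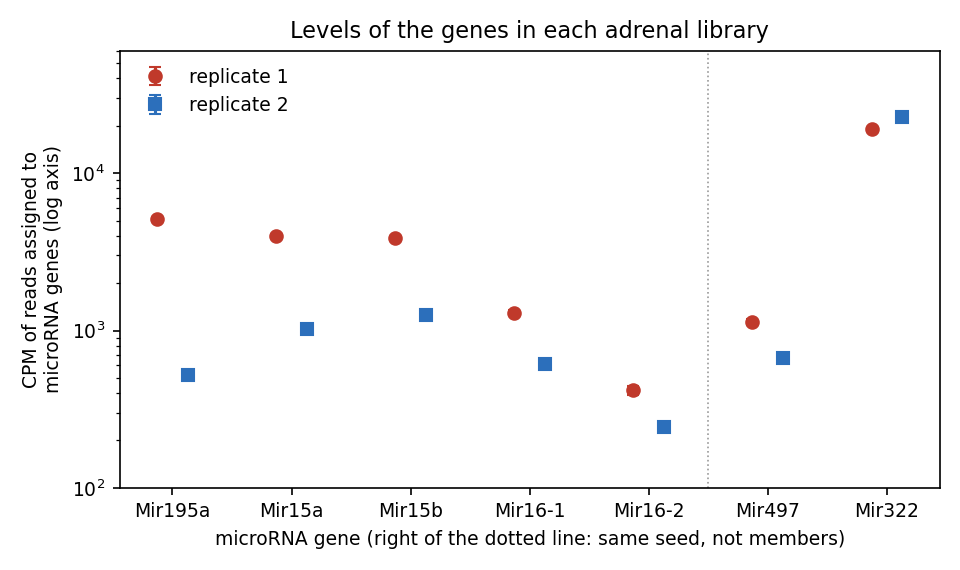
CPM on a log axis of the 5 members and, right of the dotted line, of 2 other genes with the same seed, in replicate 1 (circles) and replicate 2 (squares); bars are exact 95% intervals for counting error, mostly smaller than the symbols. All 5 members and Mir497 are higher in replicate 1, by the widest margin for Mir195a (5135 CPM in replicate 1 and 525 in replicate 2), whereas Mir322 is lower there (19026 CPM in replicate 1 and 22827 in replicate 2).

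Among all 2202 genes, Mir195a ranked 38 in replicate 1 and 122 in replicate 2, Mir15a 46 in replicate 1 and 86 in replicate 2, and Mir15b 48 in replicate 1 and 77 in replicate 2. Mir16-1 ranked 82 in replicate 1 and 110 in replicate 2, and Mir16-2 139 in replicate 1 and 160 in replicate 2. The ranks and means of Mir16-1 and Mir16-2 leave out the reads that these genes share. The order within the family changed with Mir195a, which was the highest of the 5 in replicate 1 and the lowest but for Mir16-2 in replicate 2. Mir15a and Mir15b did not differ beyond counting error in replicate 1, where the count of Mir15a over that of Mir15b was 1.03 (exact 95% interval 0.994 to 1.06), while Mir15b was ahead in replicate 2 (Mir15b over Mir15a 1.22, 1.16 to 1.27). The other neighbours in each library's order differed by more than counting error. Over the libraries the means were 2830 ± 3260 CPM for Mir195a, 2571 ± 1873 CPM for Mir15b, 2510 ± 2101 CPM for Mir15a, 955 ± 489 CPM for Mir16-1 and 330 ± 121 CPM for Mir16-2 (SD, n = 2). Against that spread, the means of Mir195a, Mir15b and Mir15a cannot be put in an order, and the gap between Mir15a and Mir16-1 was smaller than the SD of Mir15a.

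The libraries were set against counting error with a two-sided exact conditional binomial test over the 329 genes that reached 10 CPM in either library, on library sizes scaled by TMM, with Benjamini-Hochberg adjustment at 0.05. This test compares 2 libraries of 1 group and has no replicate check. Over all genes measured it called 73.6%, and it called 39.2% higher and 34.3% lower in replicate 1. All 5 members passed it, higher in replicate 1, and all 5 had at least 10 CPM in both libraries. Most genes measured in these libraries were called in 1 direction or the other, so the sizes of the differences are given next.

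The log2 ratio of replicate 1 over replicate 2, on TMM-scaled CPM plus 1, was 3.31 for Mir195a (exact 95% interval of the ratio without the added 1, 3.24 to 3.39), a 9.95-fold difference and the highest ratio of all 329 genes. It was 1.99 for Mir15a (1.93 to 2.05), rank 12, and 1.67 for Mir15b (1.62 to 1.73), rank 17. It was 1.12 for Mir16-1 (1.04 to 1.21), rank 36, and 0.79 for Mir16-2 (0.65 to 0.94), rank 61. The first 4 exceeded 1 log2 unit, as did 12.8% of all genes in that direction, and Mir16-2 did not. The median log2 ratio was 1.67 over the 5 members and 0.08 over all genes measured. The intervals of the 5 members do not overlap one another, so their counts differed in the size of the difference as well as sharing its direction. The intervals cover counting error only. For Mir16-1 and Mir16-2 the ratios rest on reads that could be placed, and the part of the uncounted reads in them was not tested.

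**Figure D2:**
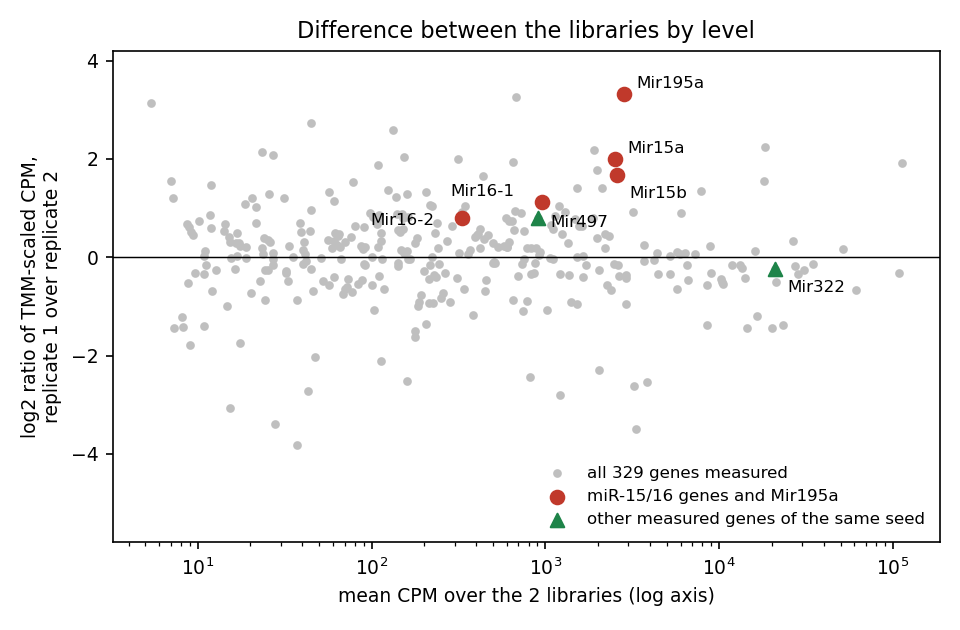
Log2 ratio of TMM-scaled CPM plus 1, replicate 1 over replicate 2, against mean CPM on a log axis, for the 329 genes measured (grey), the 5 members (red circles) and 2 other genes with the same seed (green triangles). The members run from 0.79 (Mir16-2) to 3.31 (Mir195a), Mir195a is the highest point of all, and Mir322 lies below 0 at -0.24.

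The family took a 4.04-fold larger share of counted reads in replicate 1. The shares below are of reads placed at 1 gene, so they lack the reads that Mir16-1 and Mir16-2 share. Together the 5 members made up 1.47% of the assigned reads of replicate 1 and 0.365% of those of replicate 2. The exact 95% intervals were 1.46 to 1.49% for replicate 1 and 0.358 to 0.372% for replicate 2, and the mean of both libraries was 0.920% ± 0.784 (SD, n = 2). Without Mir195a the share was 0.961% in replicate 1 and 0.312% in replicate 2, a 3.08-fold difference. Mir195a made up 34.8% of the members' counts in replicate 1 and 14.4% in replicate 2. Mir15a held a similar part of them in both libraries (27.1% in replicate 1 and 28.1% in replicate 2), while Mir15b held 26.4% in replicate 1 and 34.2% in replicate 2.

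Among counted reads, the genes with this seed summed to shares that differed less between the libraries than those of the 5 members. Mir322, counted at 19026 CPM in replicate 1 and 22827 in replicate 2, had the most counted reads of the genes with this seed in both libraries, and its log2 ratio was -0.24 (exact 95% interval -0.25 to -0.22), lower in replicate 1. Mir322 is a mouse microRNA of an X-linked cluster tied to growth and to muscle differentiation. Mir497 stood at 1136 CPM in replicate 1 and 669 in replicate 2, with a log2 ratio of 0.79 (0.71 to 0.88), higher in replicate 1. The counted genes matched to the seed differed 1.29-fold in their summed share. They made up 3.49% of assigned reads in replicate 1 (3.47 to 3.52%) and 2.71% in replicate 2 (2.70 to 2.73%). Of these reads, the 5 members gave 42.2% in replicate 1 and 13.4% in replicate 2, and Mir322 gave 54.5% in replicate 1 and 84.1% in replicate 2. These shares are of the reads that were counted. They leave out the reads shared by the Mir16 copies and can include reads of 3' arms, so which gene supplied most of the seed itself is not given by them.

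**Figure D3:**
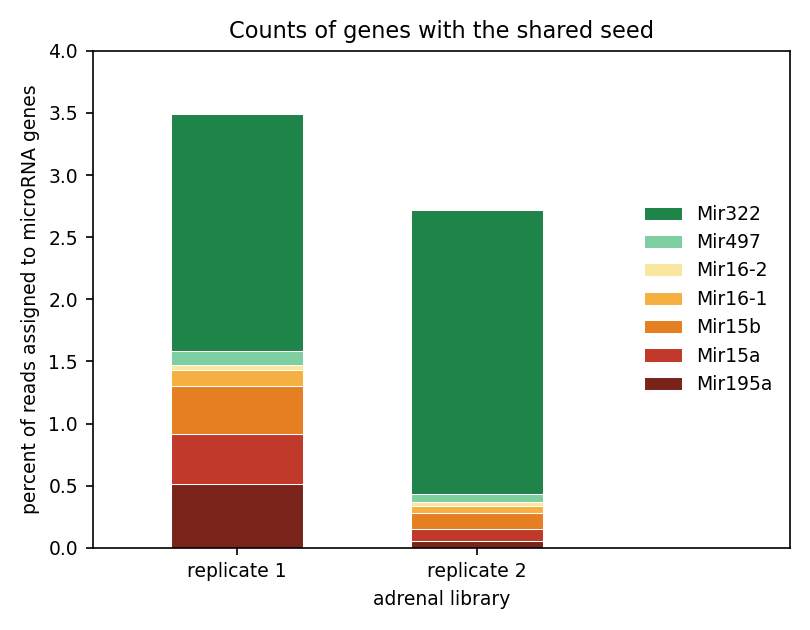
Stacked bars of the percent of assigned reads from each counted gene matched to the shared seed, in replicates 1 and 2. The 5 members (dark red to pale yellow) add to 1.47% in replicate 1 and 0.365% in replicate 2, and with Mir497 and Mir322 (greens) the bars reach 3.49% in replicate 1 and 2.71% in replicate 2.

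The counts of genes at 1 locus did not differ by the same factor. For Mir16-1 and Mir16-2 they hold only the reads that could be placed, since reads with several alignments were left out, and these were 65.2 per 100 assigned reads in replicate 1 and 72.6 in replicate 2. The part of that loss in the ratios to Mir16-1 and Mir16-2 was not tested. These comparisons are of 2 counts within a library and do not depend on how the libraries were scaled. At the Dleu2 locus, Mir15a was counted 3.07 times as often as Mir16-1 in replicate 1 (exact 95% interval 2.94 to 3.21) and 1.68 times as often in replicate 2 (1.59 to 1.78). At the Smc4 locus, Mir15b was counted 9.36 times as often as Mir16-2 in replicate 1 (8.72 to 10.1) and 5.09 times as often in replicate 2 (4.72 to 5.51). The count ratio was therefore 1.82-fold higher in replicate 1 at the Dleu2 locus (1.70 to 1.96) and 1.84-fold higher at the Smc4 locus (1.65 to 2.04). Across the loci, Mir16-1 was counted 3.13 times as often as Mir16-2 in replicate 1 (2.89 to 3.38) and 2.49 times as often in replicate 2 (2.29 to 2.71).

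Mir195a and Mir497 changed places. In replicate 1 Mir195a was counted 4.52 times as often as Mir497 (exact 95% interval 4.32 to 4.73), and in replicate 2 it was counted 0.785 times as often (0.736 to 0.837). The count ratio was 5.76-fold higher in replicate 1 (5.32 to 6.23), the widest of the 3 loci. Mir497 overlaps the annotated gene Mir497b on the opposite strand, and its value rests on strand-specific counting. Irrespective of strand, no read was left for Mir497 in either library, since its 2298 reads in replicate 1 and 2147 reads in replicate 2 were set aside as ambiguous. No member overlaps another microRNA gene on the opposite strand, and none had a read there.

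**Figure D4:**
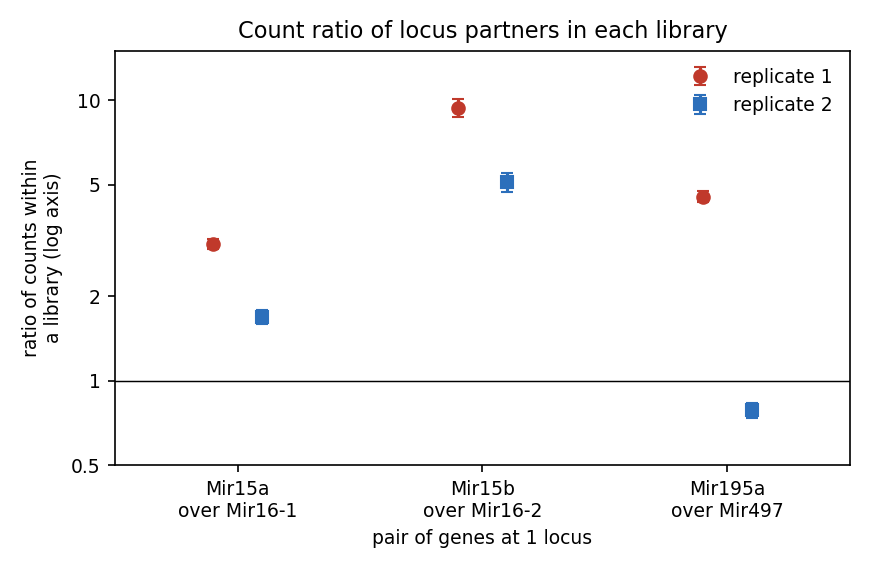
Ratio of the counts of 2 neighbouring genes within a library, on a log axis, for the 3 loci, in replicate 1 (circles) and replicate 2 (squares), with exact 95% intervals for counting error. All 3 ratios are higher in replicate 1, and Mir195a over Mir497 lies above 1 in replicate 1 (4.52) and below 1 in replicate 2 (0.785).

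The counts of Mir16-1 and Mir16-2 are uncertain, because the deposited tables leave out reads with several alignments. Their hairpins from RefSeq (build GRCm38.p6) show which stretch cannot be assigned, with the longest stretch common to both in capitals.

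Mir16-1: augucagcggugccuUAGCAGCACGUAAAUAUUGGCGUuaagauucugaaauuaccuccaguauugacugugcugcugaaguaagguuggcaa
Mir16-2: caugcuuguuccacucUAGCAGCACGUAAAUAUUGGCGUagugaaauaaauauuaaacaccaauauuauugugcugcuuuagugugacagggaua

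The common stretch is 23 bases long, 1 more than the 22 bases of miR-16-5p, and begins with the mature strand's first base. A read of the mature 5' strand, ending within that stretch, fits both genes equally well. Of the windows of 22 bases in the annotated hairpins, 2 of 72 in Mir16-1 and 2 of 74 in Mir16-2 also occur in the other copy. None of the windows of Mir15a, Mir15b or Mir195a occur in another annotated hairpin. The search covered the 2202 annotated hairpins on both strands, and the rest of the genome was not searched.

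The reads counted for the Mir16 copies, 3474 in replicate 1 and 2738 in replicate 2, are therefore those that could be placed. They were 0.172% of assigned reads in replicate 1 and 0.0853% in replicate 2. They give no total for miR-16, and the sums of the family above lack its shared reads. Reads with several alignments, of all kinds, numbered 1318731 in replicate 1 and 2329968 in replicate 2. How many of them were miR-16 was not tested. Without the Mir16 copies the family took 1.30% in replicate 1 and 0.280% in replicate 2, a 4.66-fold difference. Of 92 genes whose mature sequence RefSeq also gives for another gene, 38 reached 10 CPM in both libraries. By mean CPM, Mir16-1 ranked 4 and Mir16-2 ranked 9 among the 92.

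The genes closest to the members by level were sought over both libraries among genes with 10 CPM or more in each, as the distance of log2(CPM + 1). With 2 libraries, this is a description of level and difference only. The nearest to Mir15a was Mir15b, at a distance of 0.28, followed by Mir214 (3057 CPM in replicate 1 and 914 in replicate 2) and Mir483 (3068 CPM in replicate 1 and 1173 in replicate 2). The nearest to Mir15b were Mir15a, Mir483 and Mir214. Mir195a had no close neighbour. Its nearest was Mir381 of the imprinted Dlk1-Dio3 region (3099 CPM in replicate 1 and 693 in replicate 2), at 0.83, followed by Mir15a at 1.03 and Mir214 at 1.09.

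Other microRNAs tied to the cell cycle went in both directions. In a list of 24 restraining genes, made of the let-7 genes, Mir98 and the miR-34, miR-449 and miR-26 genes with Mir503, Mir322 and Mir497, 22 were measured. Of these, 4 were higher in replicate 1 (18.2%, beside 39.2% of all genes measured). Another 16 of the 22 were lower, beside 34.3% of all genes measured, and 2 did not pass the test. The median log2 ratio of the list was -0.39, beside 0.08 over all genes. Mir34a, Mir497, Mir503 and Mirlet7g were those higher in replicate 1, Mirlet7g at 54169 CPM in replicate 1 and 48930 in replicate 2. The other genes of highest mean level were lower in replicate 1. Mirlet7b stood at 46728 CPM in replicate 1 and 75959 in replicate 2, and Mirlet7i at 32678 CPM in replicate 1 and 36762 in replicate 2, beside Mir322. Several of these genes have numbered copies whose shared reads were not counted. Irrespective of strand, Mirlet7e, Mirlet7f-1 and Mir497 kept no read in either library. In that setting 14 genes of the list were lower in replicate 1 and 4 higher, with Mir449a in place of Mir497.

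A list of 21 microRNAs linked to proliferation, made of the miR-17/92 cluster and its paralogs with Mir21a, Mir221, Mir222, Mir130b, Mir301 and Mir301b, had 18 genes measured. Of these, 7 were higher (38.9%) and 8 lower in replicate 1, and 3 did not pass, with a median log2 ratio of 0.27. The share that was higher is close to the 39.2% over all genes measured, of which 34.3% were lower. Mir21a was lower in replicate 1, at 4685 CPM against 12350 CPM in replicate 2. Mir93 (4399 CPM in replicate 1 and 7008 in replicate 2) and Mir17 (4533 CPM in replicate 1 and 5876 in replicate 2) were lower as well, and Mir92-1 (2555 CPM in replicate 1 and 1875 in replicate 2) was higher. Mir301, with 1218 CPM in replicate 1, 129 CPM in replicate 2 and a log2 ratio of 3.25, came nearest to Mir195a in the size of its difference within this list. It was singled out after its value was seen.

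MicroRNAs of particular cell types also differed between the libraries, in both directions. Like the members, the endothelial list was higher in replicate 1 (177732 CPM summed over its 2 genes, against 47928 CPM in replicate 2), nearly all of it from Mir126a. Mir122, the liver marker, stood at 26733 CPM in replicate 1 and 9284 in replicate 2. The striated muscle list summed to 11198 CPM in replicate 1 and 4488 in replicate 2. Nearly all of it came from Mir206, at 11177 CPM in replicate 1 and 4480 in replicate 2. The red blood cell list summed to 653 CPM in replicate 1 and 320 in replicate 2. The smooth muscle list was lower in replicate 1 (28429 CPM, against 39314 CPM in replicate 2), as was the leukocyte list (1283 CPM, against 2220 CPM in replicate 2). Most of the smooth muscle sum came from Mir143, with a log2 ratio of -0.27, while Mir145a differed more, at -2.61. The neuroendocrine list, which the chromaffin cells of the adrenal medulla express, summed to 27343 CPM in replicate 1 and 34204 in replicate 2, most of it from Mir375. Of its 4 genes, Mir375 was lower in replicate 1, Mir7-2 and Mir7b were higher and Mir7-1 did not pass, with a median log2 ratio of 0.08. With no floor on low counts Mir7-2 did not pass either. By the test, Mir126a, Mir122 and 3 of 3 red blood cell genes passed as higher in replicate 1. So did both measured genes of 6 in the striated muscle list, beside 39.2% of all genes measured. Irrespective of strand, Mir126a kept 15 reads in replicate 1 and 3 in replicate 2. The red blood cell genes Mir451a and Mir486 and the leukocyte gene Mir142 kept no read in either library. The values of these genes therefore rest on strand-specific counting. Of the muscle genes, Mir133b reached 10 CPM in replicate 1 alone (17.8 CPM, against 5.92 CPM in replicate 2), and Mir133a-2 and Mir1a-1 had no read in either library. Beside 34.3% of all genes measured, all 3 leukocyte genes and both smooth muscle genes passed as lower. Their part in the members' differences was not tested, and in whole tissue a change in the number of cells and a change in microRNA per cell cannot be told apart. No list here marks the adrenal cortex, so that part of the tissue label was not checked.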

How the data were processed

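MicroRNA was sequenced from 2 adrenal libraries of 1 group. The authors deposited raw counts of reads for each microRNA gene, 1 table per library. Build mm10 and annotation M21 are named in the text deposited with the tables. The aligner and the counter are not stated there or in the labels. The tables hold counts irrespective of strand, on the gene's strand and on the opposite strand, as their values show, and the gene's strand was used. Summary lines (61.7% of reads in replicate 1 and 62.5% in replicate 2, mainly unmapped reads and reads with several alignments) stayed out of totals and tests. All 2202 identifiers matched M21 symbols. M21 writes Mir497, Mir18 and Mir92-1 for the genes also known as Mir497a, Mir18a and Mir92a-1.

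CPM used counts assigned to microRNA genes. Shares and levels have exact Clopper-Pearson 95% intervals, and a count of 0 allows up to 3 counts. With 1 library per arm edgeR's quasi-likelihood test could not be fitted, so the exact conditional binomial test of SciPy 1.17.1 was used. TMM factors over the measured genes (0.991 and 1.01) came from edgeR 4.0.16. The test was tried on simulated counts with counting error alone. That trial cannot show how the test behaves where animals or library preparations vary. DESeq2 1.42.0 size factors, library totals alone, no floor, a floor of 100 CPM, a pseudocount of 0.1 CPM, counts irrespective of strand, all reads as the denominator and each library alone were alternatives. Calculations ran in R 4.3.3, Python 3.11.15 and pandas 2.3.3.

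Genes named were the members, genes with their seed, genes within 10 kb, the 3 nearest by level for Mir15a, Mir15b and Mir195a, the 4 highest of each cell-cycle list, and cell type markers. Other genes were named after their values were seen. The members and lists were chosen with earlier results of these data known.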

Additional observations from a re-analysis of the deposited data

How the results depend on the processing

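All 5 members kept their direction and their call under each alternative scaling, floor and strand setting run. They kept their direction with the other pseudocount, which does not enter the test, so their calls could not change. Irrespective of strand the members' own counts were the same, so only the scaling and the other genes tested could change. The members' log2 ratios ranged from 3.23 to 3.32 for Mir195a, 1.91 to 2.00 for Mir15a, 1.59 to 1.68 for Mir15b, 1.04 to 1.13 for Mir16-1 and 0.71 to 0.80 for Mir16-2. The median log2 ratio of all genes was 0.08, against 0 with DESeq2 size factors and -0.05 with no floor. At a floor of 100 CPM, 5 proliferation genes were lower in replicate 1 in place of 8, as fewer genes were tested. Irrespective of strand, each of these means was higher, because ambiguous reads left the total. The means became 4037 CPM for Mir195a, 3598 for Mir15b, 3531 for Mir15a, 1323 for Mir16-1 and 455 for Mir16-2. The mean share became 1.29% for the family and 4.11% for all genes matched to the seed. With all reads as the denominator, every mean was lower by construction. The means were then 1083 for Mir195a, 980 for Mir15b, 958 for Mir15a, 363 for Mir16-1 and 126 for Mir16-2. The mean share was then 0.351% for the family and 1.18% for all genes matched to the seed. Each mean rests on both libraries, and without replicate 1 or replicate 2 it is the single library's value, for the family 0.365% without replicate 1 and 1.47% without replicate 2. The ratio of Mir195a to Mir497 had no value irrespective of strand. No paired analysis was possible because there is 1 group. With 2 libraries, differences from animal and from library preparation cannot be told apart.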

Other observations

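The X-linked locus of Mir322, which carries the same seed, also showed unequal differences between neighbours. Mir322 was counted 21.9 times as often as its neighbour Mir503 in replicate 1 (exact 95% interval 20.8 to 22.9) and 49.4 times as often in replicate 2 (46.9 to 52.0). Mir503, whose targets include cell-cycle genes, was higher in replicate 1 (870 CPM, against 462 CPM in replicate 2), as the 5 members were, whereas Mir322 was lower there.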
